A study of Homo sapiens with 4 samples.

Results

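The tubulin isotypes described here are 10 genes, 4 of alpha tubulin (TUBA1A, TUBA1B, TUBA1C and TUBA4A) and 6 of beta tubulin (TUBB, TUBB2A, TUBB2B, TUBB3, TUBB4B and TUBB6), chosen by name from the 58825 gene rows of the files. They were compared between LoVo cells with and without the receptor tyrosine kinase MET. In MET-KO cells TUBB6 and TUBA1A rose from near the bottom of the family, TUBB2A and TUBA4A rose from a moderate level, and the 2 most abundant alpha tubulin genes, TUBA1B and TUBA1C, fell. TUBB, TUBB2B and TUBB4B did not pass the test, and TUBB3 held too few counts to be tested.

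Microtubules are hollow polymers of alpha and beta tubulin heterodimers, which form the mitotic spindle and the tracks of intracellular transport. Each class is encoded by several genes whose products, the isotypes, are nearly identical in the body of the protein and differ mainly in an acidic C-terminal tail that faces outwards. The tail carries the sites of glutamylation and, in most alpha tubulins, a final tyrosine that can be removed and added back. TUBA1B, TUBA1C, TUBB and TUBB4B are expressed in most dividing cells, whereas TUBA1A, TUBB2A, TUBB2B and TUBB3 are best known from neurons. TUBB6 encodes class V beta tubulin.

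LoVo is a colorectal adenocarcinoma line in which MET is constitutively active. MET+ cells were the control, transfected with a GFP plasmid and labelled as wild type, and MET-KO cells were edited at MET with CRISPR/Cas9. For the knock-out, the paper also lists a GFP plasmid, as a transfection control, beside the Cas9 plasmid and the guide DNA. Both were grown in the same serum-containing medium without further treatment, and each group had 2 libraries labelled as biological replicates. MET-KO cells were grown from picked single clones selected by western blot, and the labels leave unstated whether 1 clone gave both of the MET-KO libraries. Differences between a clone and the control population therefore cannot be told apart from the loss of MET.

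Each library held between 8429142 and 10286552 counts, read at the 3′ end of transcripts (QuantSeq). Levels are given as CPM, the counts scaled to a common library total after TMM scaling. MET had 338 and 336 CPM in MET+ cells and 84.4 and 88.9 CPM in MET-KO cells, a log2 fold change of -1.96 with a standard error (SE) of 0.09 (adjusted p = 1.5e-18, edgeR quasi-likelihood test); counts at the 3′ end do not read the edited site. The groups also differed by chromosome: the median log2 fold change of tested genes was 0.50 on chromosome 7, -0.32 on chromosome 12, -0.43 on chromosomes 5 and 15 and -0.51 on chromosome 14, against 0.01 over all tested genes. On chromosome Y the median was 9.99, and 12 of 13 tested genes were higher in MET-KO cells. A value of this size can arise where a group has 0 counts, so the 12 are not read against the share of all tested genes. Of 10 colon epithelial markers, 9 were tested and 6 were lower and 2 higher in MET-KO cells. Over all tested genes, 26.9% were called lower and 27.2% higher. KRT20 and CDH17 each had 0 counts in a group, and LGALS4 had 1 count in each MET-KO library. Each passed the filter on low counts only through the other group and could be called in that direction only. The counts of 6 and 2 are therefore not read against these shares. EPCAM and CDH1 fell by 1.11 and 0.88 on the log2 scale but were detected in all 4 libraries, LGALS4 fell from 89 and 107 counts to 1 and 1, and CDH17 fell from 212 and 229 counts to 0. CDX2 rose by 1.04, KRT20 rose from 0 and 0 to 27 and 28 counts, KRT18 and KRT19 fell by 0.30 and 0.29, KRT8 did not pass the test (log2 fold change -0.19), and CDX1 had 0 counts throughout. LGALS4, KRT8, KRT18, KRT19, KRT20 and CDX1 were named after their values were seen.

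The coding ends show where the beta isotypes separate in the protein tail. The last 20 codons before the stop codon of the principal GENCODE transcript are shown 5′ to 3′ for 4 of the beta tubulin genes, with the glutamate codons GAA and GAG in capitals.
TUBB: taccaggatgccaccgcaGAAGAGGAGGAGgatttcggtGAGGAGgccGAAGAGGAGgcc
TUBB2A: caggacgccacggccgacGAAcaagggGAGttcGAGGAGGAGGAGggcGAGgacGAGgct
TUBB4B: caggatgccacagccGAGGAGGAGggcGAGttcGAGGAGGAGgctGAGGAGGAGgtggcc
TUBB6: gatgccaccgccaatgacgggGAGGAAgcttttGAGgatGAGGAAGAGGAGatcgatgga
TUBB6 holds 7 glutamate codons here against 10 in TUBB4B and 9 in TUBB. Codons of aspartate, the other acidic residue (GAC and GAT), number 4 in TUBB6, 1 in TUBB4B and 2 in TUBB. The glutamate count alone is therefore not read as a difference in acidity. Of the beta isotypes described here, TUBB6 is the least like TUBB, with 81.0% identity over the coding sequence against 81.7% for TUBB3. TUBB2A and TUBB2B differ at 1 of the 60 bases. Among the alpha tubulin genes, TUBA1A and TUBA1B share 97.2% of aligned bases over the whole coding sequence, although their mRNAs moved in opposite directions.

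Because reads come from transcript ends, the last 500 bases of each principal transcript were searched for 50-base words that also occur in transcripts of another gene. No word was shared for TUBA1C, TUBA4A, TUBB, TUBB2B or TUBB6. The share was 29.05% for TUBA1A, 49.9% for TUBA1B, 22.8% for TUBB4B and 56.1% for TUBB2A, so part of their reads could have been assigned to a relative or left out. TUBB3 stands apart, since 98.9% of its words are shared and the annotated gene AC092143.1 covers 99.0% of this stretch on the same strand. Reads of TUBB3 may therefore not have been assigned to it, and its counts are not read as a level. Annotated exons on the opposite strand cover the whole stretch of TUBA1B (AC011603.2) and TUBA4A (STK16) and 24.8% of that of TUBB4B (FAM166A), and the strand setting of the counting is not given in the sources used here. Annotated tubulin pseudogenes held at most 0.0201% as many counts as the alpha members and between 0.508% and 1.05% as many as the beta members.

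Among the 13801 genes tested across the genome, 54.1% passed the adjusted threshold of 0.05, with 27.2% higher and 26.9% lower in MET-KO cells. Against this background 6 of the 9 tested isotypes passed, 4 of them higher (TUBA1A, TUBA4A, TUBB2A and TUBB6) and 2 lower (TUBA1B and TUBA1C). The libraries of both groups did not overlap for 7 of the 9, whereas this was so for 75.6% of all tested genes. The counts of isotypes are thus near those of any expressed gene here, and what follows concerns the size and direction for each member.

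**Figure D1:**
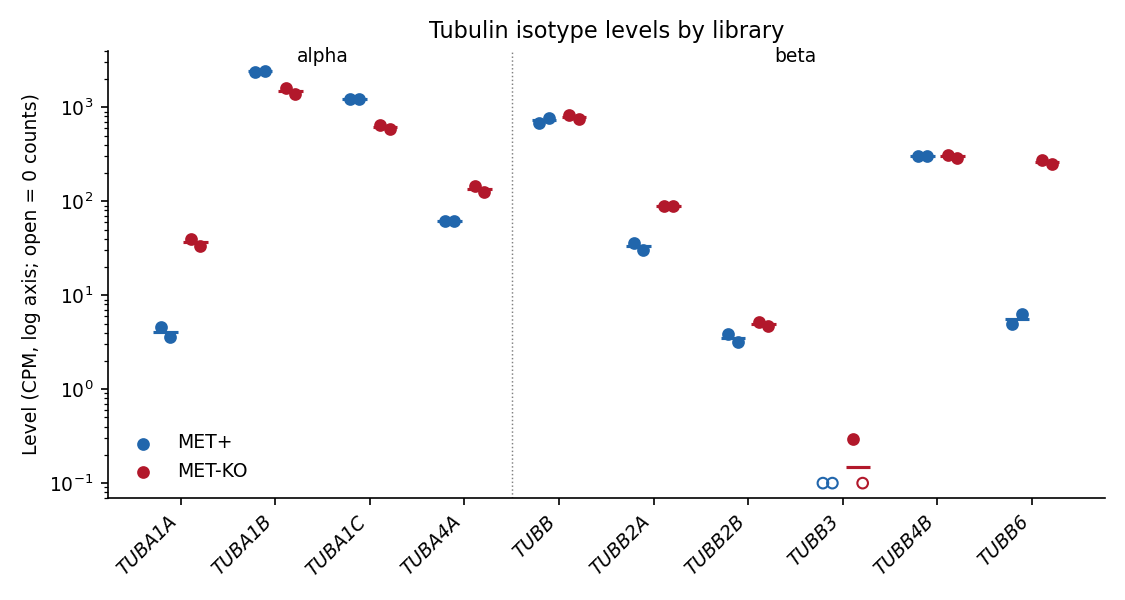
Level of each tubulin isotype in CPM on a log axis, with 1 point per library, a bar at the mean of the 2 libraries of a group, and open points for 0 counts, drawn at the bottom. TUBB6 moves from about the level of TUBA1A and TUBB2B in MET+ cells to between TUBB4B and TUBA4A in MET-KO cells.

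TUBB6 (ENSG00000176014) showed the largest fold change among the isotypes, while TUBA1B and TUBA1C differed by more in CPM (911 and 607 against 255). Its counts were 41 and 61 in MET+ cells and 2789 and 2691 in MET-KO cells, which is 4.95 and 6.26 CPM against 273 and 248 CPM. Every MET-KO library lay far above both MET+ libraries. The log2 fold change was 5.52 (SE 0.14, n = 2 per group), a 46.0-fold difference with a 95% interval of 37.9 to 55.9 (adjusted p = 1.0e-26, edgeR quasi-likelihood test). The gene lies at chr18:12307669-12344320 on the plus strand of GRCh38. None of its 13 tested neighbours within 1 Mb rose as far, and their median log2 fold change was -0.10.

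TUBB2A (ENSG00000137267), a class II beta tubulin, had 300 and 298 counts in MET+ and 915 and 974 in MET-KO cells. Its level rose from 33.4 ± 4.01 to 89.7 ± 0.0176 CPM (SD, n = 2), and the groups did not overlap. The log2 fold change was 1.43 (SE 0.11, adjusted p = 9.5e-13, edgeR quasi-likelihood test). TUBB2B (ENSG00000137285), its close copy on the same chromosome, had only 32 and 31 counts in MET+ and 53 and 51 in MET-KO cells. The groups did not overlap, but the log2 fold change of 0.49 (SE 0.32) did not pass the test (adjusted p = 0.198, edgeR), and its 95% interval ran from -0.16 to 1.15.

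TUBB and TUBB4B, the widely expressed beta tubulins, showed no detectable difference. TUBB (ENSG00000196230) had 681 and 769.7 CPM in MET+ and 838 and 747 CPM in MET-KO cells. The groups overlapped, and the log2 fold change was 0.13 (SE 0.09) with a 95% interval of -0.07 to 0.32 (adjusted p = 0.264, edgeR). TUBB4B (ENSG00000188229) had 299.7 and 304 CPM in MET+ and 313 and 287 CPM in MET-KO cells, and its log2 fold change of -0.01 (SE 0.09) had an interval of -0.19 to 0.18 (adjusted p = 0.957, edgeR). With no scaling beyond the library totals, which moved the median of all genes to 0.109, TUBB passed the test with a log2 fold change of 0.23 (adjusted p = 0.0163, edgeR), as it did without MET-KO replicate 2 (0.21, adjusted p = 0.0481).

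TUBB3 (ENSG00000258947), the class III isotype used as a neuronal marker, had 0 and 0 counts in MET+ and 3 and 0 in MET-KO cells. All 4 libraries lay at or under the floor of 3 counts, equal to 0.276 to 0.363 CPM depending on the library, and no fold is given.

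TUBA1A (ENSG00000167552), the alpha tubulin best known from the developing brain, had 38 and 35 counts in MET+ and 409 and 367 in MET-KO cells. These are 4.59 and 3.59 CPM against 40.1 and 33.8 CPM, with no overlap. The log2 fold change was 3.18 (SE 0.19), a 9.07-fold difference with a 95% interval of 6.90 to 11.9 (adjusted p = 8.5e-16, edgeR quasi-likelihood test). Even so, TUBA1A stayed far below the other alpha genes of its cluster in MET-KO cells.

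TUBA4A (ENSG00000127824), abundant in platelets and brain, had 62.0 and 61.4 CPM in MET+ and 147 and 124 CPM in MET-KO cells. Both MET-KO libraries were above both MET+ libraries, with a log2 fold change of 1.13 (SE 0.10, adjusted p = 3.2e-11, edgeR quasi-likelihood test).

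TUBA1B (ENSG00000123416) was the most abundant isotype in all 4 libraries. It had 2377 and 2434 CPM in MET+ and 1600.3 and 1389.9 CPM in MET-KO cells, and its log2 fold change was -0.69 (SE 0.10, adjusted p = 3.6e-07, edgeR). TUBA1C (ENSG00000167553) had 1222 and 1219 CPM in MET+ and 647 and 581 CPM in MET-KO cells, with a log2 fold change of -0.99 (SE 0.09, adjusted p = 6.0e-11, edgeR). In neither gene did the groups overlap.

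**Figure D2:**
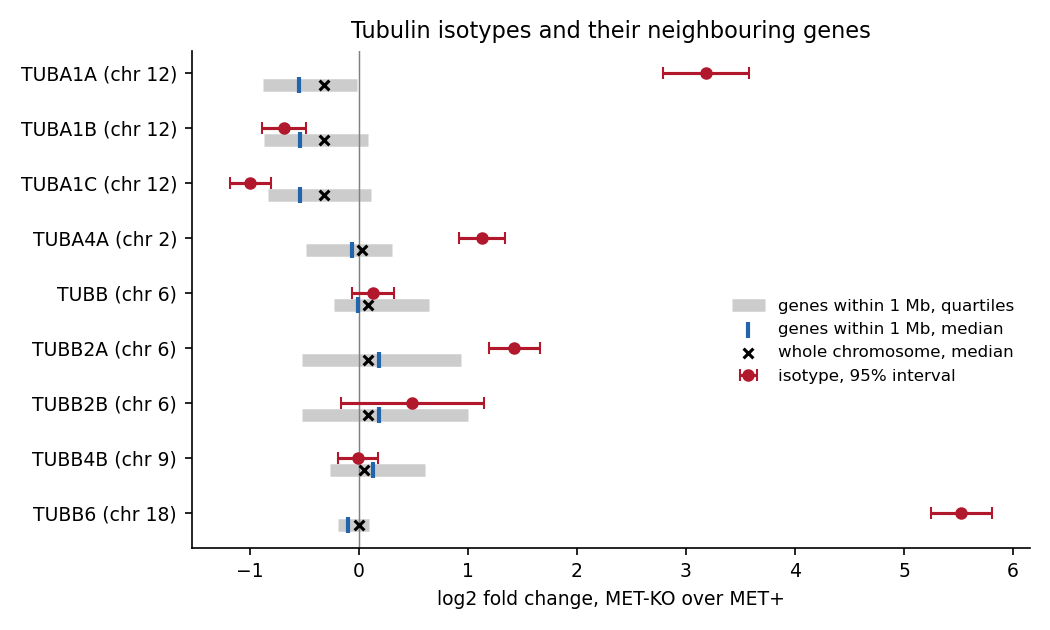
Log2 fold change of MET-KO over MET+ for the 9 tested isotypes (red points with 95% intervals), beside the median (blue tick) and quartiles (grey bar) of tested genes within 1 Mb and the median of the whole chromosome (cross). TUBB6, TUBA1A, TUBB2A and TUBA4A lie above the quartiles of their neighbours and TUBA1C below them, while TUBA1B, TUBB, TUBB2B and TUBB4B lie inside.

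The 3 TUBA1 genes sit next to each other on chromosome 12, at chr12:49127782-49131397 (TUBA1B, minus strand), chr12:49184796-49189324 (TUBA1A, minus strand) and chr12:49188736-49274603 (TUBA1C, plus strand), and the annotated spans of TUBA1A and TUBA1C overlap on opposite strands. Many genes around them were lower in MET-KO cells. Of the 38 other tested genes within 1 Mb of TUBA1B, 23 were called lower and 7 higher, and their median log2 fold change was -0.54. TUBA1B lay 0.37 and TUBA1C 0.67 below the median of their chromosome, and 14 of the 38 neighbours of TUBA1B and 7 of the 37 of TUBA1C fell further. The part of this regional difference in the fall of TUBA1B and TUBA1C was not tested. TUBA1A went against its region, and of its 37 tested neighbours only DDN had a larger positive value (log2 fold change 3.97).

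The other members lie in regions without such a shift. The median of neighbours within 1 Mb was -0.06 for TUBA4A on chromosome 2, 0.18 for TUBB2A on chromosome 6 and 0.13 for TUBB4B on chromosome 9. Of 38 neighbours of TUBA4A, 3 exceeded it, and of 19 neighbours of TUBB2A, 2 did.

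The order of the levels changed with these differences. As QuantSeq reads about 1 fragment per transcript end, levels of different genes were compared without division by length, subject to the shared words given above. In MET+ cells the order by mean CPM was TUBA1B, TUBA1C, TUBB, TUBB4B, TUBA4A, TUBB2A, TUBB6, TUBA1A and TUBB2B, and only the neighbours TUBA1A and TUBB2B overlapped over the libraries. In MET-KO cells it was TUBA1B, TUBB, TUBA1C, TUBB4B, TUBB6, TUBA4A, TUBB2A, TUBA1A and TUBB2B, with no overlap between neighbours. With 2 libraries per group, the absence of overlap between 2 genes next to each other in level is weak evidence of an order.

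Summed over the members, alpha tubulin fell and beta tubulin rose. The alpha sum was 3666 and 3719 CPM in MET+ and 2434 and 2129 CPM in MET-KO cells, and the beta sum was 1026 and 1113 CPM against 1520.5 and 1377 CPM. Each group lay apart from the other in both sums. Together the members took 0.459% ± 0.00209 of counts in MET+ and 0.385% ± 0.0182 in MET-KO cells (SD, n = 2). The ratio of alpha to beta counts, which does not depend on scaling between libraries, was 3.46 ± 0.164 in MET+ and 1.57 ± 0.0384 in MET-KO cells. TUBB6 alone accounts for 255 of the 379 CPM by which the beta sum differed, and TUBA1B for 911 of the 1411 CPM by which the alpha sum differed.

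The make-up of each class was then taken as the share of each isotype in the class's counts in a library. TUBB6 made up 0.483% (95% interval 0.347 to 0.654, exact Clopper-Pearson) and 0.562% (0.430 to 0.722) of beta tubulin counts in the MET+ libraries and 17.99% (17.4 to 18.6) and 18.001% (17.4 to 18.6) in the MET-KO libraries. The shares of TUBB and TUBB4B fell, from 67.8% ± 1.94 to 54.7% ± 0.602 and from 28.2% ± 1.37 to 20.7% ± 0.170, although neither gene's own level passed the test. TUBB2A went from 3.14% ± 0.555 to 6.21% ± 0.435, and TUBB2B held 0.331% ± 0.0644 and 0.341% ± 0.000439. The intervals cover counting error only.

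Among the alpha isotypes, TUBA1B held 65.2% ± 0.431 in MET+ and 65.5% ± 0.324 in MET-KO cells, a difference of 0.367 percentage points that was smaller than the SD in MET+ cells, and the groups overlapped, while its level fell. TUBA1C went from 33.1% ± 0.382 to 26.9% ± 0.505. TUBA4A went from 1.67% ± 0.0288 to 5.93% ± 0.138 and TUBA1A from 0.111% ± 0.0203 to 1.62% ± 0.0425. In all, 6.13 percentage points of the alpha make-up were placed differently between the groups, against 0.610 and 0.714 between replicates of MET+ and MET-KO cells. In beta tubulin it was 20.6 points, against 2.82 and 0.872. The smallest p that the exact permutation test allows with 2 libraries per group is 0.333, the value reached by all shares whose groups did not overlap, so that no share can pass a threshold of 0.05.

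**Figure D3:**
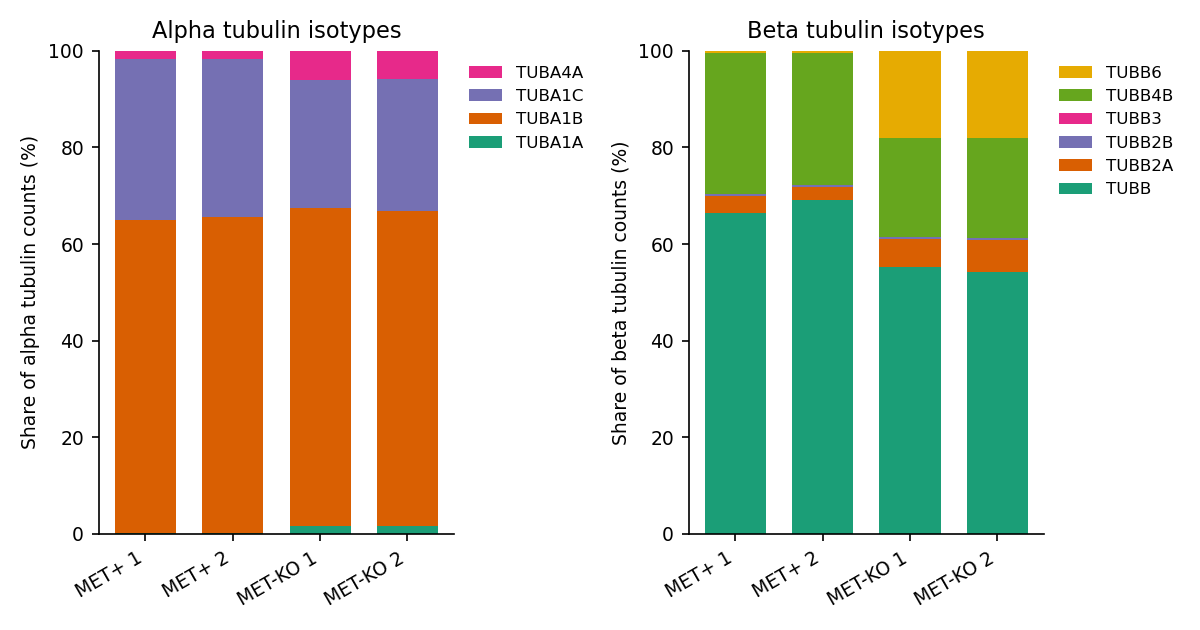
Share of each isotype in the alpha tubulin counts (left) and beta tubulin counts (right) of each library, in percent. TUBB6 fills 17.99% and 18.001% of beta tubulin counts in the MET-KO libraries and under 1% in both MET+ libraries, and TUBA4A grows from 1.67% to 5.93% of alpha tubulin counts.

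The promoter windows from RefSeq (GRCh38.p14, 250 bases before to 50 after the start) were matched for all 10 members and are shown for TUBB6 and TUBA1A, the isotypes with the largest fold changes. Capitals mark matches on either strand to the CCAAT box (CCAAT), the GC box (GGGCGG), the TEAD core (GGAATG), the TATA box (TATAAA) and the CHR element (TTTGAA), motifs chosen after results of these data were known.
TUBB6, chr18:12307991-12308290, plus strand: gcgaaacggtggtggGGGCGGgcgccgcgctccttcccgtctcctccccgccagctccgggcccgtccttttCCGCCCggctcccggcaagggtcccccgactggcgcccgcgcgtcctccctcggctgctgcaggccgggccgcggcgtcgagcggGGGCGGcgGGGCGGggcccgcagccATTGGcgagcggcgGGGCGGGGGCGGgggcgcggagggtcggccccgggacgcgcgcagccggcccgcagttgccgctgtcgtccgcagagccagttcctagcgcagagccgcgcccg
TUBB6, upstream start, chr18:12307419-12307718, plus strand: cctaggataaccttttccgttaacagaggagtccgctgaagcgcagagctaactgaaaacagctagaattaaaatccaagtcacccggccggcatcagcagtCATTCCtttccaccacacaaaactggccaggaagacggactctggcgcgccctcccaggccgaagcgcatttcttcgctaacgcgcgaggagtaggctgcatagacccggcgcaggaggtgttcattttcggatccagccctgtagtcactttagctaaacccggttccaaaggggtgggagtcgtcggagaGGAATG
TUBA1A, chr12:49189031-49189330, minus strand: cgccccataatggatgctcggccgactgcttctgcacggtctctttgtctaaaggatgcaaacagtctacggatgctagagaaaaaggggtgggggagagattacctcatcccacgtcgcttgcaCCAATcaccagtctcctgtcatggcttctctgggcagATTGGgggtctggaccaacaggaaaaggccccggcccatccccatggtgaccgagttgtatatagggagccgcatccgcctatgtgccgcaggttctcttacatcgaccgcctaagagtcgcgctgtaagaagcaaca
In the window nearest to the principal transcript start, 8 of 10 members hold a GC box, which 44.95% of 35116 windows hold, and 7 hold a CCAAT box, against 34.6% of windows. The TEAD core is in 1 member (TUBB4B) against 14.0% of windows, and both of its matches at TUBB6 lie in the upstream window. TATAAA is in 1 member (TUBB2A, 11.5% of windows), TTTGAA in 2 (TUBA1C and TUBB4B, 15.2%), and the CArG box in none (1.29%). The isotypes that rose share no one of these motifs.

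Of 12 other tubulin genes 6 were tested, and 3 passed as lower and 1 as higher, 66.7% of those tested against 54.1% of all genes. TUBG1, the gamma tubulin that nucleates microtubules, fell from 117 and 107 CPM to 89.4 and 86.3 CPM (log2 fold change -0.35, adjusted p = 0.00343, edgeR), and its low relative TUBG2 rose (0.78, adjusted p = 0.0106). TUBE1, an epsilon tubulin of centrioles, fell by 0.65 on the log2 scale. TUBAL3, an alpha tubulin-like gene, had 25 and 22 counts in MET+ and none in MET-KO cells, at least 9.25-fold lower against a floor of 3 counts per library. It passed the filter only through the MET+ libraries and could only be called lower. The 66.7% is therefore not read against the 54.1%. TUBB4A had 2.66 and 4.52 CPM in MET+ and 5.78 and 4.88 CPM in MET-KO cells and did not pass the test (adjusted p = 0.153, edgeR), nor did TUBD1 (0.707).

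Around the tubulins, 7 lists with 116 different genes were counted in the same fit. Of the 98 tested, 48.0% passed, 21 higher and 26 lower, with a median log2 fold change of -0.01, close to the 54.1% and the median of 0.01 over all tested genes. TUBAL3, MAP2 and KATNAL2 are among those that passed the filter through 1 group only. The share is therefore not read as a result about these genes. With library totals only, 28 were higher and 23 lower. In the gamma tubulin ring complex, 4 of 11 genes were lower, TUBGCP3, TUBGCP4 and TUBGCP5 besides TUBG1, and 1 was higher. Together 45.5% were called, against the 54.1% of all tested genes. TUBGCP4 had the lowest value (log2 fold change -1.06), and it lies with TUBGCP5 on chromosome 15, whose median was -0.43. Of the 21 tested folding genes (chaperonin, prefoldin and tubulin cofactors), 3 were higher and 5 lower, 38.1% against the same 54.1%. TBCB, which takes part in handling alpha tubulin, rose by 0.57 and PFDN4 by 0.70 on the log2 scale, while TBCD fell by 1.14, PFDN1 by 0.72 and the chaperonin subunit CCT5 by 0.59. PFDN1 and CCT5 lie on chromosome 5, whose median was also -0.43. The part of these regional differences was not tested.

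Tubulin mRNA is degraded when free tubulin is in excess, through TTC5, SCAPER and CNOT11. TTC5, which recognizes the nascent tubulin chain and was named after its value was seen, had a log2 fold change of 0.05 (adjusted p = 0.827, edgeR). CNOT11 fell by 0.76. SCAPER fell by 0.43, the same as the median of its chromosome 15.

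Of the 20 tested genes that modify tubulin, 7 were higher and 4 lower, a share close to the 54.1% of all genes. Some of the 7 passed the filter only through the MET-KO libraries, TTLL1 (3 and 9 counts in MET+ cells) among them. The share is therefore not read as a result about the list. AGTPBP1 and AGBL5, deglutamylases that remove added glutamate, both rose by 0.69 on the log2 scale, and SIRT2, a deacetylase, rose by 0.51. TTLL5 and TTLL4, ligases that add glutamate, fell by 1.12 and 0.51, and TTLL3, a glycine ligase, fell by 0.69. Glutamylation genes also went the other way, as the ligase TTLL1 rose by 1.76 from low counts and TPGS2, a subunit of a glutamylase complex, rose by 0.48; both were named after their values were seen. TTLL5 lies on chromosome 14, whose median was -0.51.

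Of 27 tested genes of microtubule-binding proteins, 7 were higher and 8 lower, 55.6% against 54.1% of all tested genes. MAP2, among the 7, had 0 counts in MET+ cells, passed the filter only through the MET-KO libraries and could only be called higher. The share is therefore not read as a result about the list. MAPRE2, a plus-end binding protein, rose from 6.53 and 5.13 CPM to 30.5 and 29.8 CPM (log2 fold change 2.38), and the minus-end protein CAMSAP2 and the spindle protein CKAP2 rose by 0.78 and 0.49. Another minus-end protein, CAMSAP3, fell by 1.43 and another spindle protein, TPX2, by 0.62, both named after their values were seen. MAP7, a cofactor of kinesin-1, fell from 58.0 and 62.1 CPM to 14.3 and 13.2 CPM (log2 fold change -2.13). MAP7D3 fell by 1.48 and TPPP, on chromosome 5, by 1.71. Of the destabilizing and severing genes, 3 of 12 were higher and 1 lower, 33.3% against the 54.1% of all tested genes. KATNAL2, among the 3, had 1 and 4 counts in MET+ and 40 and 68 in MET-KO cells. It passed the filter only through the MET-KO libraries and was named after its values were seen. STMN3, a stathmin that binds free tubulin dimers, rose from 27.4 and 20.5 CPM to 105 and 101 CPM (log2 fold change 2.11), whereas STMN1 did not pass the test (0.14, adjusted p = 0.193, edgeR) and KIF2A, also on chromosome 5, fell by 0.75. STMN1 was named after its values were seen.

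Markers of dividing cells moved with the groups. Of 12 proliferation genes 8 were lower and 1 higher without MET, against 26.9% lower and 27.2% higher over all tested genes. The list's median log2 fold change was -0.37, and MKI67, CCNB1 and CCNA2 fell by 0.83, 0.81 and 0.58. CCNB1 lies on chromosome 5, whose median was -0.43. The part of these markers in the fall of TUBA1B and TUBA1C was not tested. In bulk RNA, fewer cells of a kind and less RNA per cell cannot be told apart.

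Because TUBA1A, TUBB2A, TUBB2B and TUBB3 are known from neurons, neuronal markers were counted too. Of 12 markers, 4 were tested and 3 rose, where 27.2% of all tested genes were higher. SNAP25 and MAP2 had 0 counts in MET+ cells, passed the filter only through the MET-KO libraries and could only be called higher. The count of 3 is therefore not read against the 27.2%. SYP rose from 19 and 20 counts to 341 and 414, SNAP25 from 0 and 0 to 93 and 91, and MAP2 from 0 and 0 to 71 and 66. SNAP25 was at least 26.1-fold and MAP2 at least 19.4-fold higher, against a floor of 3 counts per library. The markers ELAVL4, NEFL, NEFM, GAP43, RBFOX3, STMN2 and DCX had 0 counts in all 4 libraries. SYT1 had 14 and 7 counts in MET+ and 19 and 36 in MET-KO cells and did not pass the test. ELAVL3 had 4 and 1 counts against 1 and 0 and was not tested. The summed level of the list was 2.87 to 4.47 CPM in MET+ and 51.5 to 55.9 CPM in MET-KO cells. The fibroblast list summed to 1.64 to 2.18 CPM in MET+ and 3.63 to 4.33 CPM in MET-KO cells, with DCN, FAP and COL1A2 at 0 throughout and 1 of 2 tested genes, COL3A1, higher. Apart from SYP, the genes of both lists were named after their values were seen.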

How the data were processed

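Gene expression was measured by QuantSeq 3′ mRNA sequencing in 4 LoVo libraries, 2 MET+ and 2 MET-KO. The files deposited by the authors hold raw read counts per Ensembl gene, 58825 rows, with 99 spike-in rows that hold 0 counts and were left out. The submitters' processing notes name bcl2fastq, cutadapt 1.16, FastQC 0.11.7, MultiQC 1.5, STAR 2.5.4a, featureCounts 1.6.2, DESeq2 1.18.1 and GRCh38; the annotation, strand setting and handling of reads with several matches are not given in the sources used here. Names, positions and transcripts came from GENCODE 29 on GRCh38, in which 58552 IDs were found.

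Counts were tested in R 4.3.3 with edgeR 4.0.16 (filterByExpr by group, TMM scaling, factors 0.949 to 1.06, quasi-likelihood test with the condition as the only term, Benjamini-Hochberg adjustment over 13801 genes, threshold 0.05). The floor was 3 counts. Intervals of shares are exact binomial 95% intervals (SciPy 1.17.1), and coding sequences were aligned with Biopython 1.88. The coding ends of the alpha tubulin genes are not reported here. On simulated data from the means of these libraries (13475 genes), the test recovered 83 of 99 genes changed by a log2 fold of 1 and 97 of 97 changed by 2, with 13 false calls. The simulation changed 200 genes and gave all genes the same spread between libraries, whereas 54.1% of tested genes passed in the data. Its error rates therefore need not hold for this comparison. Replicates of 1 group differed by 4.86 to 5.45 times the chi-square per degree of freedom expected from sampling alone, so no library was taken as a copy of another. P-values measure the spread between these libraries.

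The members and lists were chosen with earlier results of these data known. Named genes are the members, other tubulins that passed the filter, MET, and in each list the 3 genes with the largest positive and negative changes among called genes whose groups did not overlap and whose mean log2 CPM reached 3; others are named as chosen later. Alternatives were DESeq2 size factors, library totals, the DESeq2 1.42.0 Wald test, leaving out the filter, a minimum of 10 counts per library, a replicate block, leaving out each replicate, and other denominators of the shares.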

Additional observations from a re-analysis of the deposited data

How the results depend on the processing

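Under each of the 10 alternatives to the test, TUBA1A, TUBA4A, TUBB2A and TUBB6 were called higher and TUBA1B and TUBA1C lower. TUBB was called higher in 2 of them, with library totals only (log2 fold change 0.23, adjusted p = 0.0163) and without MET-KO replicate 2 (0.21, adjusted p = 0.0481, edgeR), so that 5 members were then higher. Library totals moved the median of all genes to 0.109. TUBB4B, which was never called, changed sign to 0.0927 with library totals only, to 0.0311 with at least 10 counts in every library and to 0.0586 without MET-KO replicate 2, and ranged down to -0.0747 without MET-KO replicate 1. The cause was not tested. The log2 fold change of TUBB6 ranged from 5.38 to 5.71 and that of TUBA1A from 2.996 to 3.36. Where a replicate was left out, the lone library was assumed to vary like the other group. The rise in the share of TUBB6 was 17.4 percentage points with all protein-coding beta tubulin genes or with pseudogenes in the denominator, against 17.5 with the members.

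With the replicate number as a block, 4 members were higher and 2 lower. The deviations of same-numbered libraries correlated at -0.0216, so the numbers were not taken to pair the samples. TUBB2B had at most 53 counts in a library, which limits the precision of its fold change.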
